A study of Sus scrofa with 12 samples.

Results

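The testicular macrophage genes described here are 10 protein-coding genes of macrophage identity and scavenging, taken by symbol from the 21674 mRNAs of the coding-gene table: CSF1R, SPI1, TYROBP, FCER1G, CD163, MSR1, MRC1, CD14, CD68 and AIF1. Each symbol was found once, and each gene matched a RefSeq gene of the pig assembly Sscrofa11.1. RNA was sequenced from testis samples obtained by castration of Hezuo boars, an indigenous Chinese breed, and Landrace boars kept under the same conditions. The groups were Ha (Hezuo, 30 days of age), Hb (Hezuo, 120 days), La (Landrace, 30 days) and Lb (Landrace, 120 days), with 3 boars and 3 libraries in each and 12 libraries in all. The libraries held 22538417 to 23758931 estimated mRNA counts in Ha, 17165519 to 22707568 in Hb, 18523274 to 23563949 in La and 18998959 to 23253496 in Lb. The design asks how the testis transcriptome changes between these ages and how the breeds differ at each age. No cells were sorted, so each value is an average over all cell types of the testis, relative to the RNA of the whole library. Fewer cells of a type, less RNA per cell and more RNA from other cells therefore cannot be told apart.

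Macrophages are the most numerous leukocytes of the testicular interstitium in mammals, where they lie against Leydig cells and on the peritubular wall. Their survival depends on signalling through the CSF1 receptor, and their identity on the transcription factor PU.1, which SPI1 encodes. They take up dying cells and debris through scavenger receptors, exchange signals with Leydig cells and help to keep local immune responses in check. The label of the tissue was checked against markers of testis cells. INHA of Sertoli cells, with a mean of 344 FPKM over the 12 libraries, and INSL3 of Leydig cells, with 1536 FPKM, were present, and the 10 spermatid genes summed to 6.49 ± 0.682 FPKM in Ha and 6247 ± 1256 FPKM in Hb (SD, n = 3). In Landrace the spermatid sum was 8.22 ± 3.27 FPKM in La and 3609 ± 285 FPKM in Lb.

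With age, 9 of the 10 macrophage genes were lower and MRC1 was higher in Hezuo boars, and the same 9 were lower and MRC1 higher in Landrace boars, with no overlap between the 30-day and the 120-day libraries of a breed for any of the 10. Levels that follow are CPM, counts relative to the library's total after TMM scaling, and a difference is a log2 fold change of the second group over the first from edgeR's quasi-likelihood test. Differences with age are given as Hb over Ha in Hezuo and Lb over La in Landrace. A gene is called when its Benjamini-Hochberg adjusted p over all mRNAs tested is below 0.05 and its log2 fold change is above 1 in size. In Hezuo, 9 members were called lower and 1 higher, beside 23.2% of the 16548 mRNAs tested that were called lower and 28.2% called higher. In Landrace, 8 members were called lower and 1 higher, beside 20.1% of 16637 mRNAs called lower and 27.5% called higher. Groups that did not overlap, with the older one lower, were found for 9 of 10 members in each breed, beside 38.0% of all mRNAs tested in Hezuo and 37.9% in Landrace. The median log2 fold change of the members was -2.74 in Hezuo and -1.64 in Landrace, while that of all mRNAs tested was -0.02 and 0.01.

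**Figure D1:**
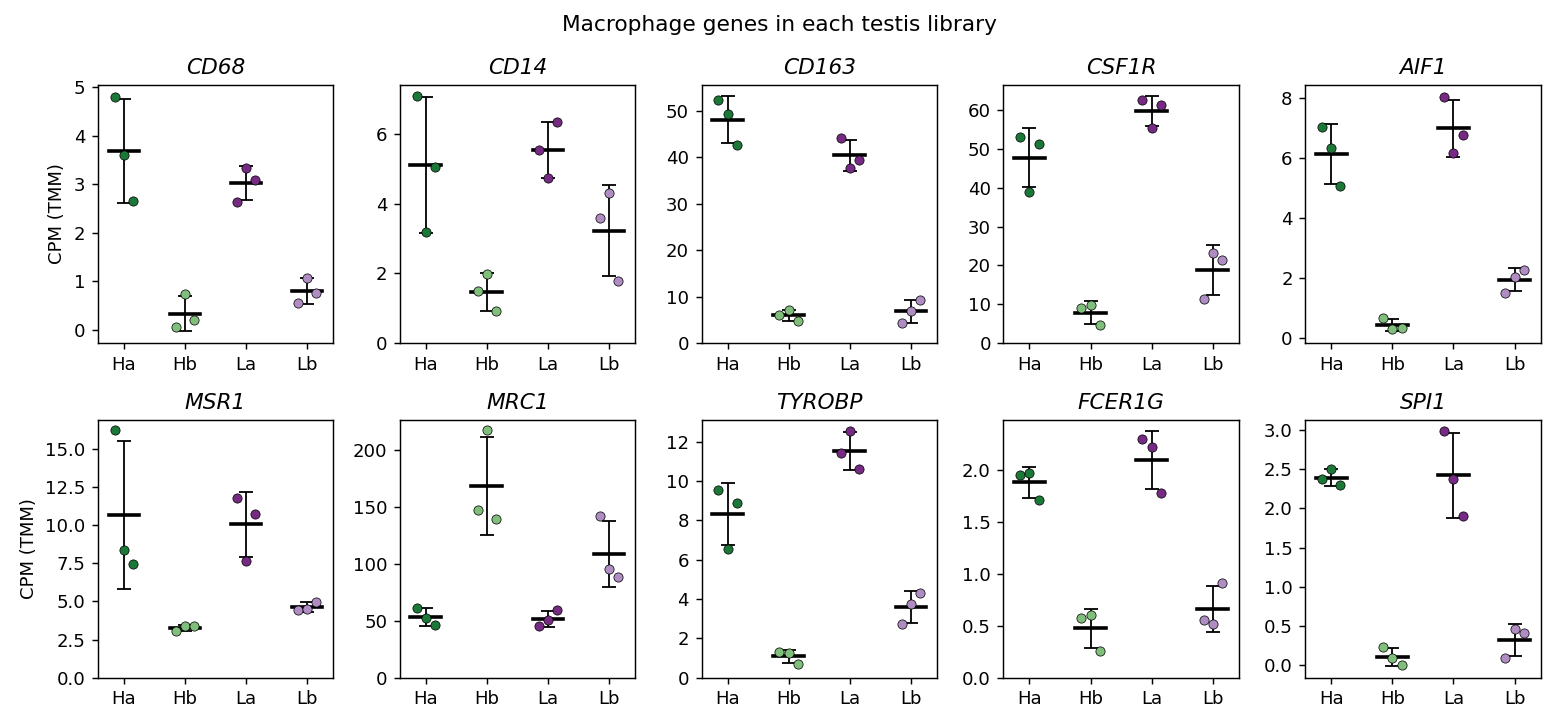
Level of each macrophage gene in every library of Ha, Hb, La and Lb, in TMM-scaled CPM on a linear axis of its own, with points for libraries, horizontal bars for the means of 3 and vertical bars for 1 SD. MRC1 lies between 46.1 and 61.3 CPM in Ha and between 139 and 218 CPM in Hb, while the other 9 genes are lower in Hb than in Ha and lower in Lb than in La.

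CSF1R (chromosome 2, 151102138 to 151130311) encodes the receptor for the growth factors CSF1 and interleukin 34. Its levels were 53.0, 38.9 and 51.3 CPM in Ha and 9.06, 9.85 and 4.52 CPM in Hb. In Landrace they were 62.5, 55.3 and 61.3 CPM in La and 11.3, 23.3 and 21.4 CPM in Lb. The 30-day and 120-day libraries were far apart in both breeds, and Hb replicate 3 and Lb replicate 1 were the lowest of their groups. The difference was -2.59 ± 0.31 (SE, edgeR adjusted p = 0.000262) in Hezuo and -1.63 ± 0.25 (edgeR adjusted p = 0.000493) in Landrace. SPI1 (chromosome 2, 15227850 to 15245679) stood at 2.38, 2.50 and 2.30 CPM in Ha and 0.229, 0.0925 and 0 CPM in Hb, the latter from 4, 2 and 0 counts. Levels of SPI1 in Landrace were 2.98, 2.38 and 1.90 CPM in La and 0.092, 0.468 and 0.407 CPM in Lb, the latter from 2, 10 and 8 counts. Every 120-day library of both breeds was below every 30-day library. SPI1 had log2 fold changes of -4.36 ± 0.70 (SE, edgeR adjusted p = 0.00112) in Hezuo and -2.85 ± 0.53 (edgeR adjusted p = 0.00147) in Landrace, sizes that so few counts leave imprecise.

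The ligands of CSF1R had different courses. CSF1, the ligand also known as macrophage colony-stimulating factor, had 17.9, 15.9 and 15.3 CPM in Ha and 6.59, 5.59 and 3.60 CPM in Hb, and fell by 1.62 on the log2 scale (SE 0.26, edgeR adjusted p = 0.00107). It also fell in Landrace, by 1.62 (SE 0.17, edgeR adjusted p = 4.74e-05). IL34, the ligand best known from brain and skin, was not called in any of the 4 comparisons: its differences were -0.40 with age in Hezuo, 0.01 with age in Landrace, 0.94 between the breeds at 30 days and 1.37 between them at 120 days (edgeR adjusted p = 0.353, 0.952, 0.00933 and 0.0715). IL34 had the highest mean FPKM of the 7 listed ligands and cytokine receptors related to CSF1, at 2.65 over the 12 libraries, and CSF2 was at 0 in all of them. Of the 5 tested in each breed, 4 were called lower in Hezuo and 2 in Landrace, with CSF2RA at -2.98 in Hezuo and CSF2RB at -1.77 in Landrace, the log2 fold changes of largest size in this list among those called.

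TYROBP and FCER1G encode adaptors that carry the activating motif (ITAM) for many receptors without one, TREM2 and Fc receptors among them. TYROBP (chromosome 6, 45309199 to 45312562) had 9.57, 6.54 and 8.88 CPM in Ha and 1.32, 1.25 and 0.720 CPM in Hb. Its levels in Landrace were 11.5, 12.5 and 10.6 CPM in La and 2.72, 3.74 and 4.32 CPM in Lb. The ages did not overlap in either breed, and the lowest Lb library was above the highest Hb library. TYROBP differed by -2.90 ± 0.34 (SE, edgeR adjusted p = 0.000251) in Hezuo and by -1.64 ± 0.24 (edgeR adjusted p = 0.000341) in Landrace. FCER1G (chromosome 4, 89242467 to 89246344) had 1.96, 1.98 and 1.71 CPM in Ha, 0.573, 0.601 and 0.262 CPM in Hb, 2.30, 2.22 and 1.78 CPM in La and 0.553, 0.515 and 0.915 CPM in Lb. The older libraries were again below the younger ones, from counts of 4 to 13 in Hb. Its differences were -1.93 ± 0.43 (SE, edgeR adjusted p = 0.00511) in Hezuo and -1.62 ± 0.38 (edgeR adjusted p = 0.0047) in Landrace. Another list held receptors, kinases and other signalling proteins, not all of which act through such adaptors. TREM2, which is in it, had too few counts to be tested. Of the listed genes, 10 of 12 tested were called lower in Hezuo and 9 of 13 in Landrace. In either breed 0 were higher by a call of edgeR or DESeq2 or at an unadjusted p below 0.05. FCGR3A, an Fc receptor and the most abundant of them at a mean of 31.6 FPKM, differed by -2.88 in Hezuo and -1.86 in Landrace, VAV1, a signalling protein of leukocytes, by -3.04 and -1.28, and the kinase LYN by -2.53 and -2.22.

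Among the scavenger receptors, CD163 takes up haemoglobin bound to haptoglobin. CD163 (chromosome 5, 63300200 to 63334497) had 52.4, 49.4 and 42.6 CPM in Ha and 5.96, 7.12 and 4.65 CPM in Hb. The corresponding levels were 44.2, 37.8 and 39.4 CPM in La and 4.19, 6.88 and 9.30 CPM in Lb. The highest 120-day library of each breed was far below its lowest 30-day library. The difference of CD163 was -3.01 ± 0.20 (SE, edgeR adjusted p = 1.98e-05) in Hezuo and -2.53 ± 0.28 (edgeR adjusted p = 6.47e-05) in Landrace. MSR1 (chromosome 17, 3859903 to 3939612), the class A receptor for modified lipoproteins, had 16.3, 8.36 and 7.44 CPM in Ha, 3.04, 3.38 and 3.41 CPM in Hb, 11.8, 7.64 and 10.7 CPM in La and 4.42, 4.49 and 4.98 CPM in Lb. Ha replicate 1 was well above the other Ha libraries, and the 120-day libraries lay close together. MSR1 differed by -1.69 ± 0.35 (SE, edgeR adjusted p = 0.00362) in Hezuo and by -1.08 ± 0.23 (edgeR adjusted p = 0.00301) in Landrace. The latter was no longer past the fold threshold without La replicate 1, at -0.95 (edgeR adjusted p = 0.0139, range over the alternatives 0.00021 to 0.0139), and with limma on log2(FPKM + 1), at -0.91 (limma adjusted p = 0.00093).

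MRC1 (chromosome 10, 44107926 to 44226734), the mannose receptor of macrophages and some endothelial cells, went the other way. It had 61.3, 52.0 and 46.1 CPM in Ha and 147, 218 and 139 CPM in Hb. In Landrace its levels were 45.0, 50.2 and 59.4 CPM in La and 142, 95.1 and 88.6 CPM in Lb. Every 120-day library was above every 30-day library, with Hb replicate 2 and Lb replicate 1 the highest of their groups. MRC1 rose by 1.67 ± 0.20 (SE, edgeR adjusted p = 0.000281) in Hezuo and by 1.11 ± 0.19 (edgeR adjusted p = 0.000898) in Landrace. It stayed higher with age under each alternative run, but in Landrace the difference was 0.94 with library totals, 0.71 and 0.77 with limma on FPKM and 0.89 without Lb replicate 1, all under the fold threshold (adjusted p over the alternatives 1.38e-07 to 0.00571). The other 9 members were lower with age under each alternative run in both breeds. MRC1 made up 13.3 ± 0.953% (SD, n = 3) of the summed FPKM of the 10 members in Ha, 75.9 ± 3.82% in Hb, 11.8 ± 1.88% in La and 47.8 ± 11.7% in Lb.

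CD14 (chromosome 2, 142348036 to 142349686) is the coreceptor that hands lipopolysaccharide to TLR4. Its levels were 7.11, 3.19 and 5.06 CPM in Ha, 1.49, 1.99 and 0.917 CPM in Hb, 5.54, 4.75 and 6.36 CPM in La and 3.59, 4.30 and 1.78 CPM in Lb. The ages did not overlap, but the gap between La and Lb was narrow. CD14 differed by -1.78 ± 0.43 (SE, edgeR adjusted p = 0.00808) in Hezuo and was not called in Landrace, at -0.75 ± 0.34 (edgeR adjusted p = 0.0762). Without Lb replicate 2 it was called, at -1.01 (edgeR adjusted p = 0.0377, range over the alternatives 0.00607 to 0.193), and so it was with limma on log2(FPKM + 0.1), at -1.08, while without Lb replicate 3 the difference was -0.46 (edgeR adjusted p = 0.169). The interaction of breed and age for CD14 was 1.02 (edgeR adjusted p = 0.3), so a difference between the breeds in this change was not shown. Of the listed lipopolysaccharide and Toll-like receptor genes, 9 of 15 tested were called lower in each breed and 0 were higher by a call of edgeR or DESeq2 or at an unadjusted p below 0.05, with LY96, the partner of TLR4, at -1.98 in Hezuo and -1.03 in Landrace. In this list LBP, which binds lipopolysaccharide, had the called fold change of largest size in Hezuo, at -4.63, and TLR8, a sensor of RNA, in Landrace, at -2.42.

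CD68 and AIF1 are used as macrophage markers in tissue sections. CD68 (chromosome 12, 52874754 to 52877256), a glycoprotein of lysosomes and endosomes, had 4.80, 3.60 and 2.65 CPM in Ha, 0.0573, 0.740 and 0.197 CPM in Hb, 2.64, 3.34 and 3.08 CPM in La and 0.553, 1.08 and 0.762 CPM in Lb. The Hb values came from 1, 16 and 3 counts and were the most scattered of the 4 groups relative to their mean. CD68 differed by -3.38 ± 0.73 (SE, edgeR adjusted p = 0.00449) in Hezuo and by -1.87 ± 0.35 (edgeR adjusted p = 0.00145) in Landrace. AIF1 (chromosome 7, 23711752 to 23731191) encodes the calcium-binding protein IBA1 and had 7.03, 6.34 and 5.06 CPM in Ha and 0.688, 0.324 and 0.327 CPM in Hb. In Landrace AIF1 had 8.05, 6.17 and 6.76 CPM in La and 1.52, 2.06 and 2.29 CPM in Lb. All 3 Lb libraries were above all 3 Hb libraries, and both were below the 30-day libraries. AIF1 differed by -3.75 ± 0.42 (SE, edgeR adjusted p = 0.000183) in Hezuo and by -1.80 ± 0.27 (edgeR adjusted p = 0.000425) in Landrace. With limma on log2(FPKM + 1), which compresses low levels, the Hezuo differences of SPI1 and CD68 were -1.24 and -1.58.

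**Figure D2:**
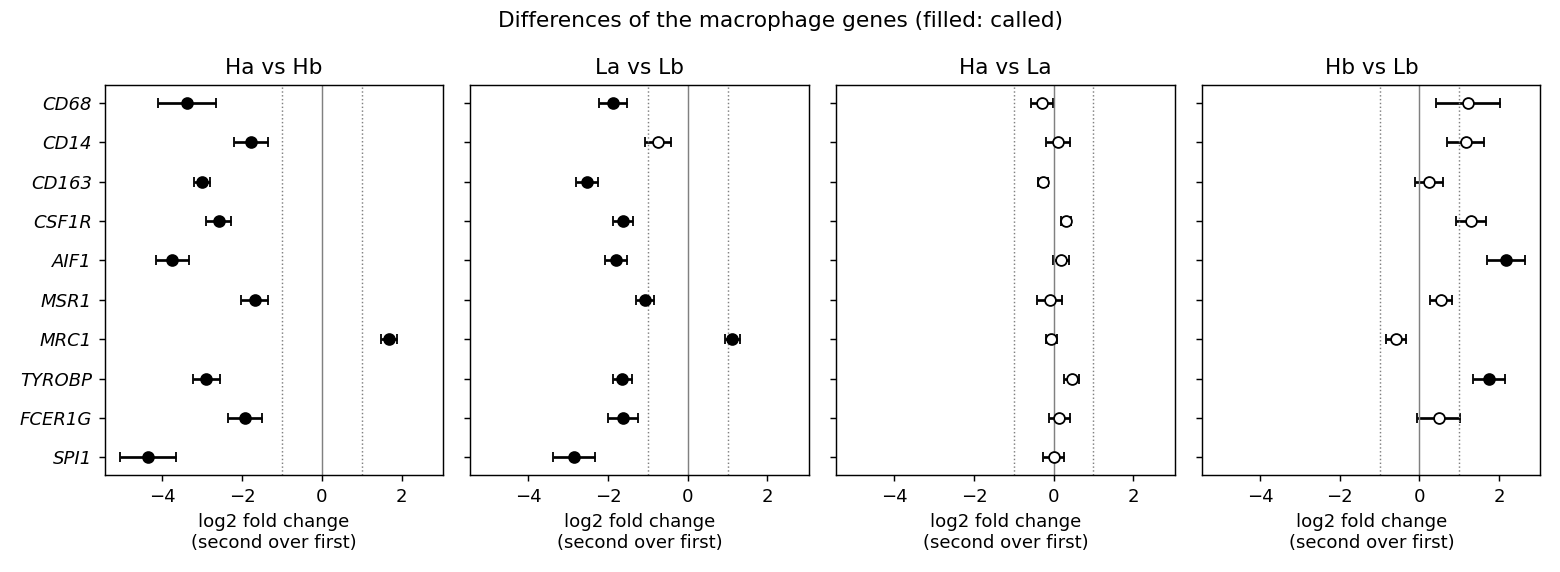
Log2 fold changes of the macrophage genes in the 4 comparisons, second group over first, with bars of 1 standard error; filled points were called by edgeR, and dotted lines mark a log2 fold change of 1 in either direction. With age, all 10 points are filled for Hezuo and 9 for Landrace; between the breeds, 0 are filled at 30 days and those of AIF1 and TYROBP at 120 days, where SPI1 was not tested.

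The order of the members by level was read in FPKM, which allows for gene length. In Ha, TYROBP had the highest mean at 12.6 ± 2.32 FPKM (SD, n = 3), followed by CD163 at 11.5 ± 1.19, CSF1R at 10.5 ± 1.75, MRC1 at 8.69 ± 1.28 and AIF1 at 7.93 ± 1.32 FPKM, and each of these overlapped the next. SPI1 was lowest there, at 1.46 ± 0.0851 FPKM, and the only one of the 10 in Ha to lie apart from its neighbour in the order, CD68. In La, TYROBP at 17.0 ± 1.52 FPKM and CSF1R at 12.7 ± 0.954 FPKM led and did not overlap. In Hb, MRC1 had 20.0 ± 6.53 FPKM and the next gene, CSF1R, 1.25 ± 0.489 FPKM. In Lb, MRC1 had 14.2 ± 3.31 FPKM and TYROBP, the next, 4.36 ± 1.19 FPKM. Without MRC1 the members summed to 65.9, 51.0 and 53.1 FPKM in Ha and 6.48, 7.90 and 4.45 FPKM in Hb. The same sum was 65.2, 59.5 and 60.1 FPKM in La and 11.4, 16.5 and 18.8 FPKM in Lb, so that every Lb library was above every Hb library.

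At 30 days the breeds were compared first. In Ha vs La edgeR called 0 of the 10 members and DESeq2 also called 0, beside 4.01% of 15648 mRNAs called lower and 3.60% called higher by edgeR. An unadjusted edgeR p below 0.05 was found for 2 members, a smaller share than the 36.4% of all mRNAs tested. Those 2 were CSF1R, at 0.31 ± 0.13 (SE, edgeR adjusted p = 0.129), and TYROBP, at 0.46 ± 0.18 (edgeR adjusted p = 0.115), and their La libraries were all above their Ha libraries, which was so for 20.8% of all mRNAs tested. For the other 8 the breeds overlapped, and their log2 fold changes ran from -0.30 for CD68 to 0.17 for AIF1. The members' median was 0.05 and that of all mRNAs tested 0.00.

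At 120 days, AIF1 and TYROBP were called higher in Lb than in Hb, which makes 2 of the 9 members tested, beside 2.65% of 16311 mRNAs called higher and 1.20% called lower. AIF1 differed by 2.17 ± 0.48 (SE, edgeR adjusted p = 0.0447) and TYROBP by 1.75 ± 0.40 (edgeR adjusted p = 0.0495). Both stood close to the threshold, and neither was called with the replicate number as a block. For AIF1 the edgeR adjusted p ran from 0.0638 to 0.145 without Hb replicate 2 or 3 or without any 1 of the Lb libraries, and for TYROBP from 0.0508 to 0.16 without any 1 of the 6 libraries. Without a filter on low counts the edgeR adjusted p was 0.0534 for AIF1 and 0.0544 for TYROBP, and over all alternatives it ran from 0.00334 to 0.145 and from 0.00399 to 0.16. CSF1R, at 1.3 ± 0.38 (SE, edgeR adjusted p = 0.0862), was called by DESeq2 (adjusted p = 0.0112) and by edgeR with the 12 libraries in one fit (adjusted p = 0.0186, range over the alternatives 0.0112 to 0.234). The Lb libraries were above the Hb libraries without overlap for 4 of 9 members, AIF1, TYROBP, CSF1R and MSR1, beside 16.0% of all mRNAs tested. MSR1 differed by 0.54, CD14 by 1.16, CD68 by 1.22, FCER1G by 0.48, CD163 by 0.24 and MRC1 by -0.60 on the log2 scale, and none of these 6 was called by edgeR, DESeq2 or limma under any alternative. With 1 library left out CD68 ran from 0.74 (without Hb replicate 1) to 2.68 (without Hb replicate 2), FCER1G from 0.17 (without Lb replicate 3) to 0.71 (without Hb replicate 2), CD163 from -0.07 (without Lb replicate 3) to 0.50 (without Lb replicate 1) and MRC1 from -0.83 (without Lb replicate 1) to -0.34 (without Hb replicate 2). SPI1 did not pass the filter on low counts in this comparison.

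The change with age was compared between the breeds by the interaction of breed and age over all 12 libraries, where a positive value means that Lb over La exceeded Hb over Ha. AIF1 was the 1 member called, at 1.94 ± 0.45 (SE, edgeR adjusted p = 0.0286), beside 5.14% of 17332 mRNAs called in either direction. Its fall with age was smaller in Landrace than in Hezuo. The call was lost without any 1 of Ha replicates 1 and 2, Hb replicate 3, La replicates 2 and 3 and Lb replicates 2 and 3, with edgeR adjusted p from 0.0543 to 0.0658, and with limma on log2(FPKM + 1), where the value was 0.96 (adjusted p over the alternatives 0.00239 to 0.0658). TYROBP had 1.24 ± 0.39 (SE, edgeR adjusted p = 0.0747) and CSF1R 0.94 ± 0.42 (edgeR adjusted p = 0.192). The comparisons of age and of breed share libraries, and so does the interaction, so their values are not separate evidence.

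AIF1 lies in a crowded stretch of chromosome 7. In the annotation, its span overlaps that of LST1 by 1236 bases and holds 3656 bases of NCR3, and HCST ends 150 bases from TYROBP. These neighbours were looked at for their position after the values had been seen. LST1 had 9 to 22 counts in the 30-day libraries and 0 to 5 in the 120-day libraries, NCR3 0 to 2 and HCST 0 to 14 counts in all 12. Counts of AIF1 are uncertain to the extent that reads of overlapping genes were shared between them. None of the 1371 assembled lncRNAs placed on a numbered or sex chromosome, and none of the 9282 annotated lncRNA transcripts, lay within 10 kb of any of the 10 members.

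Other macrophage genes, from lists chosen with earlier results of these data known, were for the most part lower with age too. Of 24 genes of macrophage and leukocyte surface and effector function, 18 were called lower and 1 higher in Hezuo, and 20 lower and 0 higher by edgeR in Landrace, where DESeq2 also called 0 higher and 0 were higher at an unadjusted p below 0.05. The most abundant was C1QC, a chain of complement C1q, with log2 fold changes of -2.35 in Hezuo and -1.49 in Landrace. SIGLEC1, which binds sialic acid, differed by -4.09 in Hezuo, and LYZ, the bacteriolytic enzyme lysozyme, by -3.43 in Landrace. The 1 called higher in Hezuo was the integrin ITGAM, at 2.11, with 21, 29 and 42 counts in Ha and 90, 26 and 140 counts in Hb, which overlapped. Among 17 tested genes of scavenging, efferocytosis and iron handling, 13 were called lower and 2 higher in Hezuo, and 12 lower and 0 higher by edgeR in Landrace, where DESeq2 also called 0 higher and 2 were higher at an unadjusted p below 0.05. The scavenger receptor MARCO had 106, 135 and 99 counts in Ha and 0 in each Hb library, at least 80.5-fold lower when 3 counts over the group are taken as the floor. In Landrace MARCO had 125, 59 and 122 counts in La and 0, 1 and 0 in Lb. The 2 called higher in Hezuo were OLR1, a receptor for oxidised lipoprotein, at 1.26, and GAS6, a bridging ligand for dying cells, at 1.19.

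Of 11 myeloid transcription factors, 7 were called lower in each breed and 0 higher by edgeR or DESeq2 or at an unadjusted p below 0.05. CEBPB, the most abundant at a mean of 13.0 FPKM, had log2 fold changes of -3.26 in Hezuo and -2.31 in Landrace. IRF5, a factor of inflammatory gene expression, was called lower with age in both breeds, at -2.85 and -1.54, and higher in Landrace at both ages, by 1.10 at 30 days and 2.45 at 120 days. Of 12 lysosomal genes, which other cells of the testis also express, 9 were called lower and 1 higher in Hezuo and 7 lower and 1 higher in Landrace. The 1 higher in both was LAMP1, a lysosomal membrane protein, at 1.05 and 1.06, while CTSL, a protease, differed by -3.83 in Hezuo and LIPA, the acid lipase, by -1.83 in Landrace.

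**Figure D3:**
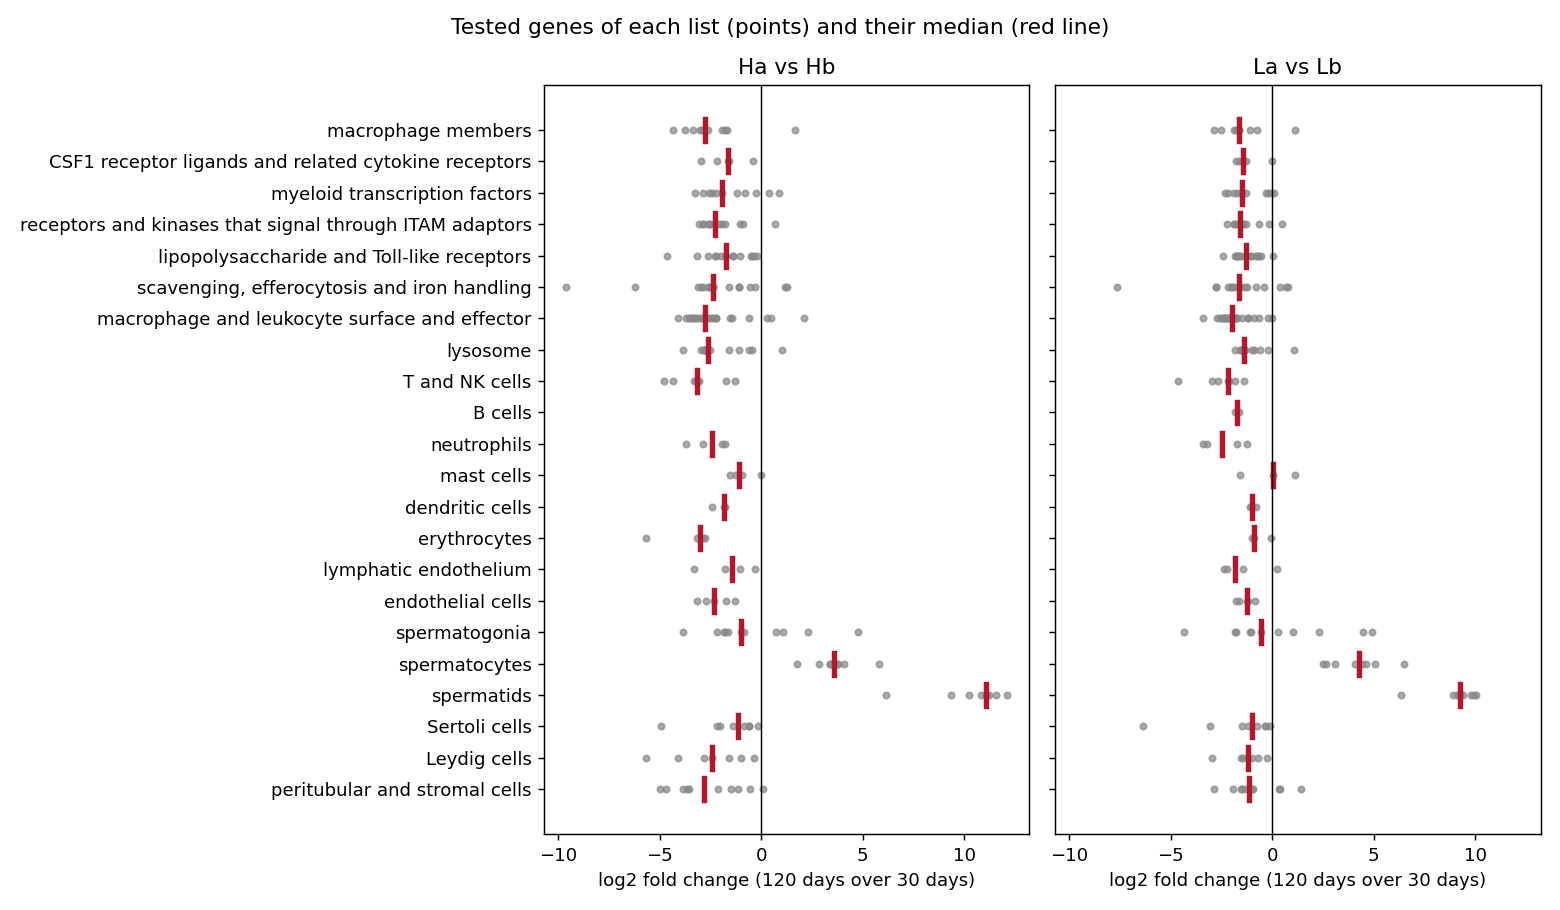
Log2 fold changes with age of the macrophage genes and of the lists beside them, for Ha vs Hb and La vs Lb, each point a gene and each bar the median of its list. The medians of the macrophage genes are -2.74 and -1.64 and those of endothelial markers -2.31 and -1.25; the places of points with one age at or near 0 counts, such as MARCO and several germ cell genes, depend on the fit's prior count.

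Markers of other cells of the testis also moved with age, and their part in the results above was not tested. Of 10 peritubular and stromal genes, 8 were called lower in Hezuo and 5 lower and 1 higher in Landrace, and COL3A1 was the most abundant. They summed to 977, 950 and 978 FPKM in Ha, 102, 101 and 66.5 FPKM in Hb, 1341, 1224 and 1512 FPKM in La and 530, 516 and 562 FPKM in Lb. The Lb sums were above all Hb sums, as those of the members without MRC1 were. Of 7 Leydig cell genes, 4 were called lower in Hezuo and 5 in Landrace, with INSL3 the most abundant. Their sums were 5487, 5009 and 4883 FPKM in Ha, 2180, 189 and 128 FPKM in Hb, 7771, 5341 and 6281 FPKM in La and 2708, 4057 and 1712 FPKM in Lb. Hb replicate 1 stood apart from the other Hb libraries in this sum but not in the sum of the macrophage genes without MRC1. The 5 endothelial genes (CDH5, EMCN, KDR, PECAM1 and VWF, the most abundant) were all called lower in Hezuo and 3 of them in Landrace, with sums of 93.7, 94.6 and 84.4 FPKM in Ha, 13.9, 26.7 and 15.7 FPKM in Hb, 98.0, 78.3 and 91.0 FPKM in La and 28.2, 45.7 and 28.6 FPKM in Lb. Of 8 Sertoli cell genes, 4 were called lower in each breed, and their sums were 835 ± 121 FPKM in Ha, 228 ± 54.9 in Hb, 1637 ± 131 in La and 355 ± 39.3 FPKM in Lb (SD, n = 3), INHA being the most abundant.

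Genes of meiotic and haploid germ cells were higher at 120 days. All 8 spermatocyte genes were called higher in both breeds, with sums of 9.32 ± 2.45 FPKM in Ha, 147 ± 11.8 in Hb, 4.86 ± 0.502 in La and 117 ± 6.84 FPKM in Lb (SD, n = 3), and PIWIL1 was the most abundant. All 9 spermatid genes tested were called higher in both breeds, PRM1 being the most abundant. Of 11 spermatogonial genes, 3 were called higher and 6 lower in Hezuo and 4 higher and 5 lower in Landrace, and the most abundant was DDX4. With library totals in place of TMM, the median of all mRNAs shifted by -0.31 in Hezuo and -0.17 in Landrace.

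Markers of other leukocytes, lymphatic endothelium and erythrocytes were read in the same way. Of 9 T and NK cell genes, all 8 tested were called lower in Hezuo and all 7 tested in Landrace, with sums of 15.8, 13.6 and 14.0 FPKM in Ha, 1.59, 2.92 and 1.53 FPKM in Hb, 24.5, 24.1 and 22.8 FPKM in La and 1.71, 3.76 and 5.25 FPKM in Lb, and NKG7 was the most abundant. The neutrophil genes (CXCR2, MPO, S100A12, S100A8 and S100A9) summed to 8.74, 6.77 and 32.1 FPKM in Ha, 0.44, 3.14 and 0.47 FPKM in Hb, 17.1, 23.7 and 11 FPKM in La and 1.51, 2.62 and 0.41 FPKM in Lb, with S100A8 the most abundant and 3 of 4 tested called lower in each breed. Ha replicate 3 was the highest in this sum. The dendritic cell genes FLT3, XCR1 and ZBTB46 were called lower in 3 of 3 cases in Hezuo and 2 of 3 in Landrace, and CLEC9A was at 0 in all 12 libraries. FLT3 was the most abundant of these, and their sums were 8.09 ± 0.393 FPKM in Ha, 1.40 ± 0.168 in Hb, 6.56 ± 0.211 in La and 2.55 ± 0.393 FPKM in Lb (SD, n = 3). Mast cell genes (FCER1A, GATA2, HDC and MS4A2) summed to 4.77 ± 1.28 FPKM in Ha, 2.11 ± 0.269 in Hb, 2.29 ± 0.421 in La and 1.53 ± 0.476 FPKM in Lb, 1 was called lower in each breed, GATA2 was the most abundant, and CPA3 was at 0 in all libraries. The B cell genes CD79A, CD79B and MS4A1 had at most 0.56, 0.64 and 0.06 FPKM in any library, and did not pass the filter in Hezuo. Of these, CD79B was tested in Landrace and not called, at -1.83 (edgeR adjusted p = 0.0627). Lymphatic endothelial genes (FLT4, LYVE1, PDPN and PROX1, the most abundant) summed to 13.8 ± 1.93 FPKM in Ha, 9.43 ± 1.22 in Hb, 10.8 ± 1.50 in La and 9.25 ± 1.39 FPKM in Lb, with 2 of 4 called lower in each breed. Erythrocyte genes (AHSP, ALAS2, HBB and SLC4A1) summed to 164, 226 and 70.7 FPKM in Ha, 4.23, 17.0 and 26.5 FPKM in Hb, 107, 37.3 and 35.7 FPKM in La and 12.9, 17.8 and 44.2 FPKM in Lb, with HBB the most abundant, 4 of 4 called lower in Hezuo and 0 of 3 called by edgeR or DESeq2 in Landrace, where 0 had an unadjusted p below 0.05.

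Within groups the members varied together to different degrees. Deviations of log2 CPM from the group mean were taken over the 12 libraries, and each member was compared with the mean of the other 9, as a description only. Pearson's r was 0.873 for CSF1R, 0.79 for TYROBP, 0.744 for CD163, 0.603 for FCER1G, 0.577 for SPI1, 0.377 for AIF1, 0.335 for CD14, 0.316 for MSR1, 0.267 for CD68 and 0.0625 for MRC1. The members share these libraries, and SPI1 and CD68 rest on few counts in Hb. The mean deviation of the 10 members was lowest in Hb replicate 3, at -0.43, and Lb replicate 1, at -0.30, and highest in Hb replicate 2, at 0.33, and Ha replicate 1, at 0.26. Among 15487 mRNAs with a mean of at least 1 CPM, those whose deviations were most like the members' mean were SLCO2B1 (r = 0.958), LOC102162791 (0.945), HSFY1 (0.943), TICAM1 (0.94), SAMHD1 (0.936), C5AR1 (0.933), FCGR2B (0.933), DEPTOR (0.927), TNFRSF1B (0.924) and PRR19 (0.921). These r values are the highest of many and so overstate the likeness. Of these 10, SLCO2B1, TICAM1, C5AR1, FCGR2B, DEPTOR and TNFRSF1B were called lower with age in both breeds, C5AR1, the receptor for the complement fragment C5a, by -3.15 in Hezuo and -1.43 in Landrace, whereas HSFY1 was called higher in both and LOC102162791 and PRR19 were called higher in Landrace, at 1.14 and 1.09. SAMHD1 was called in neither breed.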

How the data were processed

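Per the labels and the study's methods, testis samples were frozen after castration, total RNA was cleared of ribosomal RNA, and strand-marked libraries were sequenced. The authors deposited, for mRNAs and for lncRNAs, estimated counts and FPKM (fragments scaled by transcript length and library size) per library, and a file of exon positions of assembled lncRNAs. The submitters' processing notes name fastp 0.18.0, Bowtie2 2.2.8, HISAT2 2.1.0 and StringTie 1.3.4, and the genome build Sscrofa11.1. Per the study, FPKM came from StringTie; the tool behind the counts and its use of strand are not given in the sources used here.

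The estimated counts deposited by the authors were rounded to whole numbers and tested with edgeR 4.0.16 in R 4.3.3: TMM scaling, a filter on low counts (minimum count 10), the quasi-likelihood test and Benjamini-Hochberg adjustment over all mRNAs that passed. Calls needed an adjusted p below 0.05 and a log2 fold change above 1 in size. Each comparison used its 6 libraries, and the interaction all 12. Standard errors were derived as the fold change over the square root of F and are approximate. The edgeR p-values weigh a difference against the spread among 3 boars of a group, a spread estimated with help from the other genes tested. An exact two-sided permutation test of 3 against 3 cannot go below 0.1. The floor of 3 counts used where a group was at 0 covers counting error only.

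Alternatives were DESeq2 1.42.0, no filter, a filter that asks for 10 counts in each library of at least 1 group, library totals, limma 3.58.1 on log2(FPKM + 1) and log2(FPKM + 0.1), 12 libraries in one fit, the replicate number as a block, and leaving out each library. Tables and figures were made with Python 3.11.15, pandas 2.3.3, numpy 2.4.6 and matplotlib 3.10.9. The steps were tested on simulated data.

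The members and the 21 lists beside them (202 genes, 4 of them not found by symbol in the table used here) were chosen with earlier results of these data known. Of the list genes, 3 count in their lists but are not reported here. A rule set which genes could be named. It took the members, CSF1 and IL34, the most abundant gene of a list and the called gene with the largest rise or fall in a comparison. It also took every gene of a list of 5 or fewer, the 10 genes most like the members, and lncRNAs within 10 kb of a member. Beyond the 3 genes above, further genes that met this rule were not named, SCARB1, STAR and AMH among them. Positions came from RefSeq. Protein and promoter sequences were not analysed here.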

Additional observations from a re-analysis of the deposited data

Results flagged for a closer look

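The change with age differed between Hezuo and Landrace in the interaction test of edgeR for 1 macrophage gene and 21 genes of the lists beside it, of which 19 are given here, as log2 differences of Lb over La against Hb over Ha. The calls were made among 10 members and 186 list genes tested, beside 5.14% of all 17332 mRNAs tested. AIF1 had 1.94 and was called under 10 of 18 settings. Among genes of macrophages and other leukocytes, VAV1 had 1.74, PTPN6 1.25 and FLT3 1.40. The haptoglobin gene HP, from the list of scavenging, efferocytosis and iron handling, had 3.47. Lysosomal genes in this set were CTSB with 1.21, CTSD with 1.41, CTSL with 2.36 and LGMN with 1.29. Each of these 4 was called lower with age in both breeds, and by less in Landrace. Peritubular and stromal genes were COL1A1 with 4.02, COL1A2 with 2.83, COL3A1 with 3.19, PDGFRB with 2.09 and ACTA2 with 2.54, the last of which was called lower with age in Hezuo and higher in Landrace. PECAM1 of endothelium had 1.92 and SLC4A1 of erythrocytes 4.92. Germ cell genes were DAZL with 1.53, KIT with 1.3, PRM1 with -1.83 and ACRV1 with -2.96. ACRV1 had means of only 0.0397 CPM in Ha and 0.266 CPM in La. SLC4A1 had means of 0.224 CPM in La and 0.128 CPM in Lb and was not tested with age in Landrace. The sizes of these values of ACRV1 and SLC4A1 are therefore imprecise. Of the genes given, ACTA2, COL1A1, CTSB, CTSD, DAZL, HP, PECAM1 and SLC4A1 were called under all 18 settings, VAV1 under 14, LGMN under 13, ACRV1, FLT3 and PDGFRB under 11 and COL1A2 under 10. COL3A1 was called under 9 of the 18 and CTSL, KIT, PRM1 and PTPN6 under 8, so the calls of these 4 were lost under 10 settings.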

How the results depend on the processing

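All 10 members were called with age in Hezuo under each of the 14 alternatives, 7 to 10 with age in Landrace, and 0 between the breeds at 30 days. In Hb vs Lb, where 2 were called, 0 were called without a filter on low counts, 0 with the replicate block and 0 to 1 with a library left out. Numbers did not pair the boars: deviations of same-numbered libraries correlated at -0.0285 to 0.0485 across genes, and the replicate block changed no other count of members called. The interaction called 1 member, against 2 with DESeq2, 0 with limma on log2(FPKM + 1) and 0 to 2 with a library left out. The median of the members moved with limma on log2(FPKM + 1) to -1.47 (Ha vs Hb), -1.12 (La vs Lb) and 0.40 (Hb vs Lb), and with log2(FPKM + 0.1) to -1.98 in La vs Lb. In Ha vs La, where differences were near 0, signs turned: the median ran from -0.018 (without Ha replicate 2) to 0.23 with a library left out, CD14 from -0.15 to 0.42, MSR1 from -0.31 to 0.34 and MRC1 from -0.15 to 0.062 (the highest each without Ha replicate 1), and SPI1 from -0.16 to 0.17, with -0.036 for library totals, -0.038 and -0.069 for limma and -0.017 for the replicate block. At 120 days CD163 ran from -0.072 (without Lb replicate 3) to 0.50. The cause was not tested. The share of higher calls among all mRNAs in Ha vs Hb moved from 54.8% to 44.1% with library totals. With limma, which changes the test and the unit together with the scaling, it moved to 42.3% and 38.5%, with age in Landrace from 57.7% to 46.1% with log2(FPKM + 0.1), and in Hb vs Lb from 68.8% to 79.7% and 80.0% with limma. The median of all mRNAs shifted with limma by -0.45 and -0.49 with age in Hezuo, by -0.29 and -0.31 with age in Landrace and by 0.11 and 0.12 between the breeds at 120 days. Genes of the other lists called higher in Hb vs Lb were 13, against 25 with DESeq2, 31 with 12 libraries in one fit, 21 with log2(FPKM + 0.1), 6 with the replicate block and 2 to 20 with a library left out; those called lower were 1, against 3 with DESeq2 and with 12 libraries in one fit, 0 with the block and 0 to 4 with a library left out. In Ha vs La 13 were called higher, against 6 with log2(FPKM + 1) and 8 with 12 libraries in one fit, and 15 lower, against 8 with log2(FPKM + 1) and at fewest 8 with a library left out. The order of members by level over all 12 libraries was the same by mean FPKM and by mean log2(FPKM + 1), but CD14 and FCER1G changed places in Ha; 6 of the 10 genes most like the members were also among the first 10 by Spearman's rho. With 3 boars a group, and single-digit counts for SPI1, CD68, AIF1 and FCER1G in some 120-day libraries, sizes of their changes are imprecise.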

Other observations

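Several macrophage-related genes of the lists differed between the breeds although edgeR called 0 of the 10 members at 30 days. HP, which encodes haptoglobin, the ligand of CD163 once it has bound haemoglobin, had 56.4 ± 7.40 CPM (SD, n = 3) in Ha and 2.35 ± 0.216 CPM in La, a log2 fold change of -4.60 ± 0.15 (SE, edgeR adjusted p = 7.43e-06). The macrophage-secreted protein gene CD5L differed by -2.07, LBP by -2.74 and the protease gene CTSL by -1.80 in the same direction. Others were higher in La: the cytokine receptor gene CSF2RA by 1.35, TLR5, a receptor for bacterial flagellin, by 1.05 and the chemokine receptor gene CCR2 by 1.04, beside IRF5. LYZ was higher in Landrace at both ages, at 2.47 (edgeR adjusted p = 0.00143) in Ha vs La and 2.59 (edgeR adjusted p = 0.0261) in Hb vs Lb, with no overlap of libraries at either age. The Fc receptor gene FCGR1A had 0, 1 and 0 counts in Ha and 30, 10 and 18 counts in La, but also 0, 15 and 12 counts in Hb and 0, 19 and 0 counts in Lb, so that libraries of one group ranged from 0 upward. At 120 days CD86, a costimulatory ligand, was higher in Lb by 3.02, the inhibitory receptor gene SIRPA by 1.51, SCARB2 of the lysosome by 1.02, VAV1 by 2.32 and LGMN, a lysosomal protease, by 1.24 on the log2 scale, and IRF5 was higher there too. The edgeR adjusted p of these genes ran from 0.0229 for VAV1 to 0.0408 for SIRPA, and CD86 had a mean of only 0.266 CPM in Hb. Calls of list genes in this comparison were unstable, with 2 to 20 called higher when a library was left out. CCR2, CD5L and SIRPA were named after their values had been seen. Erythrocyte genes were called lower in La than in Ha in 3 of 4 cases, and their part in the difference of HP was not tested.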
